A study of Mus musculus with 3 samples.

Results

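The miRNAs described here are those that blood cells are known for: the red-cell group (miR-451a, miR-144, miR-486a and miR-486b) and the leukocyte group (miR-142a, miR-223, miR-150, miR-155, miR-146a and miR-146b). They were taken by name from the deposited catalogues of small RNA entries, and 13 of 805 miRNA identifiers matched, 6 in the red-cell group and 7 in the leukocyte group. Each of the 13 had a mature entry, out of 604 in all, and a hairpin entry, out of 743 in all. The catalogues class an entry as mature, the finished miRNA, or as hairpin, the precursor stem-loop, and name hairpin entries by an arm as well. How reads were divided between these entries is not given in the sources used here, so a hairpin count is the number of reads under that heading and not a measured amount of precursor. Extracellular vesicles (EVs) were isolated from the testes of C57/BL6 male mice at postnatal day (PND) 7, with 10 mice behind each preparation. After decapsulation the testes were digested with Accumax and the cells were pelleted by centrifugation. The EVs were collected from the supernatant with the exoEasy kit and ultracentrifugation, and proteinase K, PMSF and RNase A were applied before RNA extraction. The series held 3 small RNA libraries of this single condition, and although the titles carry the word treated, there was no control group. No source gave blood, perfusion or haemolysis readings, so blood content can be described here only through the miRNAs themselves, and RNA in blood cell debris, in vesicles of blood cells and in vesicles of testis cells cannot be told apart.

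Blood cell types differ sharply in their miRNAs, which is why a few names serve as markers. The red-cell lineage makes miR-451a and miR-144 from 1 shared primary transcript under GATA1, and miR-451a is unusual in being cut by Argonaute 2 rather than by Dicer. It is among the most abundant miRNAs of mature red cells, as is miR-486-5p, which muscle makes as well. In leukocytes, miR-142 is made across the haematopoietic lineages, miR-223 mainly by granulocytes and monocytes, and miR-150 mainly by resting lymphocytes, whereas miR-155, miR-146a and miR-146b are induced in activated immune cells and are also made by other cell types.

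Mature sequences were found in the RefSeq miRNA table (GRCm38.p6) for 14 of the 19 names looked up, and 8 of these also had an entry in the libraries. They are shown because the seed, bases 2 to 8, largely sets which targets a miRNA recognises. Sequences run 5′ to 3′, with the seed in capitals:
miR-451a: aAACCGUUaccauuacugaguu
miR-144-3p: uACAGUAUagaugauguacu
miR-142a-3p: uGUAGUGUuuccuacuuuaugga
miR-142a-5p: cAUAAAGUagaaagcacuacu
miR-223-3p: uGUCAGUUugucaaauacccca
miR-155-5p: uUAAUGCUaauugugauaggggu
miR-146a-5p: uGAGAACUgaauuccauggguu
miR-146b-5p: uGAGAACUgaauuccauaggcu
The 8 sequences carried 7 distinct seeds, because miR-146a-5p and miR-146b-5p share GAGAACU. These sister miRNAs differ at G18A and U21C, counted from 1 at the 5′ end with the miR-146a-5p base first, so a read that ends early can fit both. Names without a sequence here are miR-150-5p and the miR-486 arms.

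In the genome (GRCm38), the miR-451a sequence lies on the plus strand at chr11:78073186-78073207 and the miR-144-3p sequence at chr11:78073047-78073066. Their hairpins, Mir144 and Mir451a, are separated by 99 bases. They are printed because both miRNAs are cut from 1 transcript, yet the mature sequence sits differently in each hairpin, with the annotated mature arms in capitals:
Mir451a: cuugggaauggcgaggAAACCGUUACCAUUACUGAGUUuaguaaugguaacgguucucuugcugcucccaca
Mir144: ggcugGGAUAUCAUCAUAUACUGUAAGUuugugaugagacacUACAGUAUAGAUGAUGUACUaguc
In the Mir451a hairpin of 72 bases the mature sequence occupies positions 17 to 38 and runs into the loop. The arms of the Mir144 hairpin, of 66 bases, occupy positions 6 to 28 and 43 to 62. In the GENCODE annotation, Mir451a overlaps Mir451b on the opposite strand. Mir144, Mir150 and Mir146, the gene of miR-146a, lie outside other genes. Mir142 is intronic in the non-coding gene Mir142hg with Mir142b opposite, Mir155 is exonic in Mir155hg, Mir223 is exonic in F630028O10Rik, Mir146b is intronic in Mfsd13a, and Mir486 is intronic in Ank1 with Mir3107 opposite.

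The libraries held 25716952, 26002463 and 27939308 clean reads, of which 870967, 1005836 and 966468 were mature miRNA counts and 493345, 612122 and 577529 were hairpin counts. Levels are given as CPM, which is counts per 1000000 mature, or hairpin, counts of the same library, so 1 mature count stood for 0.994 to 1.15 CPM. The tissue label was checked on other miRNAs. The gonadal somatic miR-202-5p was at 23963 ± 4952 CPM (SD, n = 3), the endothelial miR-126a-3p at 12387 ± 4219 CPM and the liver miRNA miR-122-5p had 0, 1 and 0 mature counts. Their partner arms were lower, with miR-202-3p at 1820 ± 682 CPM and miR-126a-5p at 125 ± 31.5 CPM. Of the germ cell miRNAs, miR-449a-5p was at 718 ± 314 CPM and miR-34c-5p had no mature count in any library. Muscle miRNAs were present, with miR-1a-3p at 259 ± 58.9 CPM, miR-133a-3p at 470 ± 132 CPM and miR-206-3p at 89.7 ± 68.8 CPM. The counts of the libraries differed from each other beyond the sampling noise of reads, with a chi-square per degree of freedom of 96.6 to 187 over 272 mature miRNAs, and all 3 were counted.

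The 13 blood cell miRNAs chosen here were a small fraction of the mature miRNAs of PND7 testis EVs. The red-cell group summed to 484 ± 112 CPM (SD, n = 3), which is 0.0484% of mature counts, and the leukocyte group to 1439 ± 544 CPM, which is 0.144%. A mean above 100 CPM was reached by 3 of the 13, against 29.8% of all mature entries. These were miR-146a-5p, miR-150-5p and miR-451a, at ranks 75, 104 and 108 of 604. For scale, the most abundant mature miRNA, miR-127-3p, was at 260448 ± 47032 CPM. Of the 13 mature entries, 12 were counted in all 3 libraries, against 54.1% of all mature entries, and 5 had at least 10 counts in every library, against 45.0% of all mature entries. The median of the mean levels was 14.6 CPM for the 13 and 29.1 CPM over all 604.

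**Figure D1:**
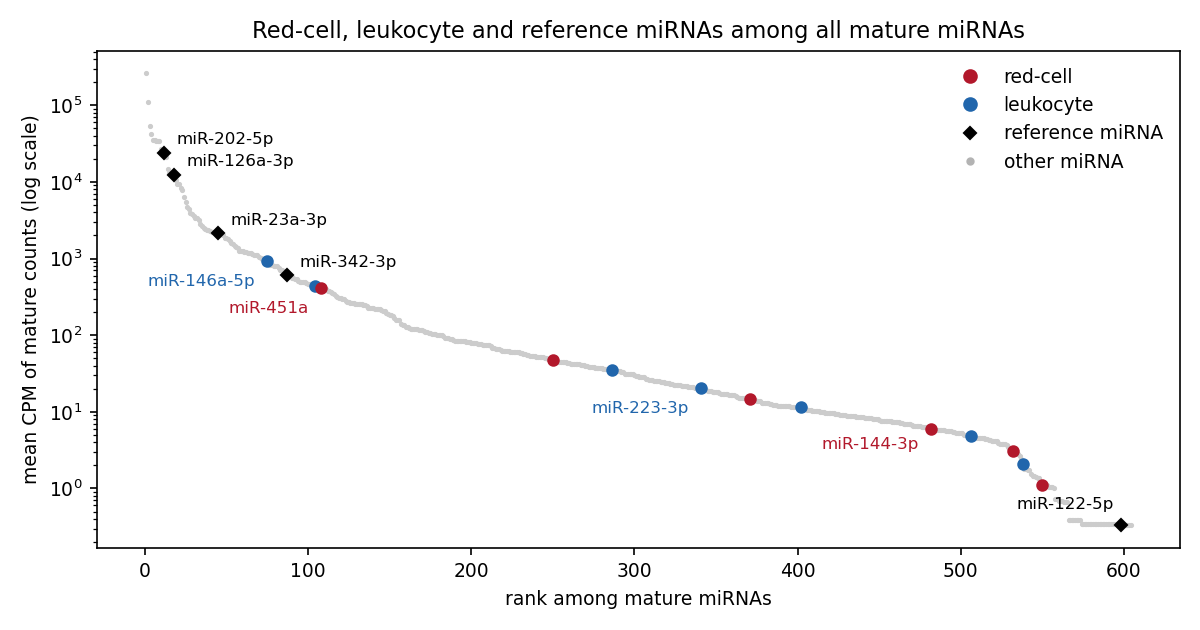
Mean level of each mature miRNA (CPM of mature counts, log scale, n = 3 libraries) against its rank. Red points are red-cell miRNAs, blue points leukocyte miRNAs and black diamonds reference miRNAs. The coloured red-cell and leukocyte miRNAs start at rank 75, below miR-202-5p, miR-126a-3p and miR-23a-3p.

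Among the red-cell miRNAs, miR-451a had 452, 319 and 385 mature counts in replicates 1 to 3, or 519, 317 and 398 CPM, with a mean of 411 ± 102 CPM. The exact Poisson 95% interval in replicate 1 was 472 to 569 CPM and did not meet that of replicate 2, 283 to 354 CPM, so the libraries differed by more than counting error. It supplied 85.4%, 81.4% and 87.7% of the red-cell mature counts in the 3 libraries. The red-cell level was therefore in the main the level of miR-451a.

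Its transcript partner miR-144-3p was near the limit of detection. It had 7, 6 and 4 mature counts, a mean of 6.05 ± 1.95 CPM and rank 482, and miR-144-5p was not listed in any library. Within the libraries the log2 ratio of miR-451a to miR-144-3p, with 0.5 added to each count, was 5.91, 5.62 and 6.42, with a mean of 5.98 ± 0.41. miR-451a was higher in 3 of 3 libraries, and the exact two-sided sign-flip permutation test gave p = 0.25, the smallest that 3 libraries allow (adjusted p = 0.35 over the 7 ratios tested). The hairpin entry of miR-144-3p had 0, 1 and 0 counts, against 1172, 989 and 1174 for that of miR-451a.

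The miR-486a and miR-486b genes overlap on opposite strands and their arms are near-identical, so reads could be split between them and their separate values are uncertain. miR-486a-5p had 61, 33 and 38 mature counts, or 70.0, 32.8 and 39.3 CPM, with the highest level in replicate 1. Its other arm, miR-486a-3p, had 5, 29 and 9, and here replicate 2 was highest. The mature entries of miR-486b were almost empty, with 2, 5 and 2 counts for the 5p arm and 2, 0 and 1 for the 3p arm. Over all arms miR-486 had 70, 67 and 50 mature counts, a mean of 66.2 ± 14.3 CPM. In the hairpin entries the copies traded places between libraries: miR-486a-5p had 3, 141 and 43 counts and miR-486b-5p had 75, 3 and 291. The highest library of miR-486a-5p was thus the lowest of miR-486b-5p. The muscle miRNAs named above were present in the same libraries, and their part in the miR-486 level was not tested.

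**Figure D2:**
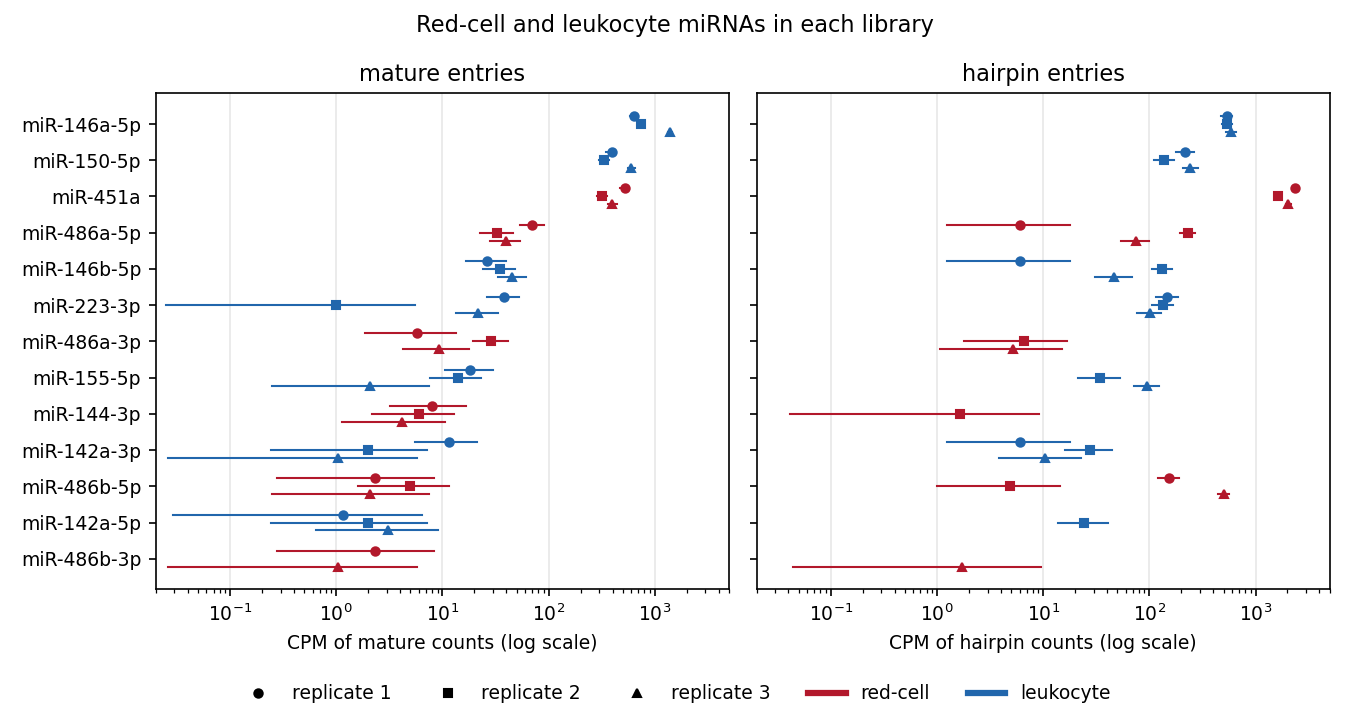
Level of each red-cell (red) and leukocyte (blue) miRNA in each library, with mature entries on the left and hairpin entries on the right, as CPM of the same entry type on a log scale. Symbols mark the 3 replicates, bars are exact Poisson 95% intervals (counting error only), and entries with 0 counts are not drawn. In mature entries miR-146a-5p leads, with its lowest library at 634 CPM, and in hairpin entries miR-451a leads in every library.

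The leukocyte group was led by miR-146a-5p and miR-150-5p. miR-146a-5p, which dampens Toll-like receptor and NF-kappaB signalling, had 552, 749 and 1345 mature counts, or 634, 745 and 1392 CPM, with a mean of 923 ± 409 CPM. It made up 56.6%, 65.9% and 67.3% of the leukocyte mature counts. Replicate 3 stood well above the other libraries, and its exact 95% interval of 1318 to 1468 CPM lay apart from theirs. The sister miR-146b-5p was far lower, at 23, 35 and 44 mature counts with a mean of 35.6 ± 9.58 CPM. The log2 ratio of miR-146a-5p to miR-146b-5p was 4.56, 4.40 and 4.92, a mean of 4.62 ± 0.27, positive in 3 of 3 libraries (exact sign-flip permutation p = 0.25, adjusted p = 0.35).

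The lymphocyte miRNA miR-150-5p had 341, 333 and 582 mature counts, or 392, 331 and 602 CPM, with a mean of 442 ± 142 CPM. It was highest in replicate 3, as was miR-146a-5p. Its level overlapped that of miR-451a: the log2 ratio of miR-451a to miR-150-5p was 0.41, -0.06 and -0.60, a mean of -0.08 ± 0.50 (exact sign-flip permutation p = 0.75, adjusted p = 0.875). miR-451a was higher in replicate 1 and miR-150-5p in replicates 2 and 3, and the mean ratio changed sign to 0.17 without replicate 3. These values do not show that the levels are equal.

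The myeloid and pan-leukocyte markers were scarce in mature entries. miR-223-3p, the granulocyte and monocyte marker, had 33, 1 and 21 mature counts, with a mean of 20.2 ± 18.5 CPM and replicate 2 almost empty. miR-142a-3p had 10, 2 and 1 mature counts and miR-142a-5p had 1, 2 and 3. The activation marker miR-155-5p had 16, 14 and 2, with replicate 3 lowest where miR-146a-5p was highest. Together miR-142a, miR-223 and miR-155 had 60, 19 and 27 mature counts in the 3 libraries. The other arms miR-223-5p, miR-150-3p, miR-155-3p, miR-146a-3p and miR-146b-3p were not listed in any library.

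Ratios to these scarce markers were large but imprecise. miR-451a exceeded miR-142a-3p by a log2 ratio of 5.43, 7.00 and 8.01, a mean of 6.81 ± 1.30, in 3 of 3 libraries (exact sign-flip permutation p = 0.25, adjusted p = 0.35). With 1 count of miR-142a-3p in replicate 3, the ratio of counts there was 385 with an exact 95% interval of 68.7 to 15246, and in replicate 2, with 2 counts, it was 160 (43.8 to 1323). Without replicate 1 the mean log2 ratio was 7.50. miR-451a exceeded miR-223-3p by 3.76, 7.73 and 4.16 on the log2 scale, a mean of 5.22 ± 2.19 (exact sign-flip permutation p = 0.25, adjusted p = 0.35). The single count of miR-223-3p in replicate 2 set that spread, with a ratio of 319 (56.8 to 12639), and without that library the mean was 3.96. Between the arms of miR-142a the log2 ratio was 2.81, 0 and -1.22, a mean of 0.53 ± 2.07 that changed sign to -0.61 without replicate 1 (exact sign-flip permutation p = 1).

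**Figure D3:**
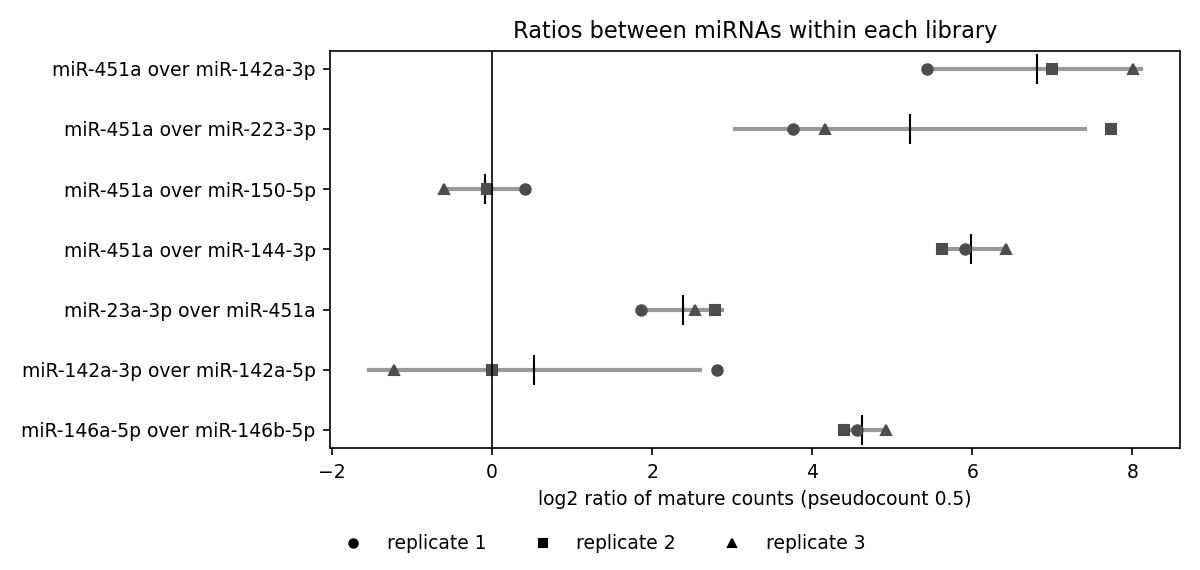
Log2 ratios of mature counts (pseudocount 0.5) between pairs of miRNAs in each library. Symbols mark the 3 replicates, ticks the means and grey bars 1 SD either side. The ratios of miR-451a to miR-142a-3p, miR-223-3p and miR-144-3p lie above 0 in every library, whereas those to miR-150-5p lie on both sides of 0.

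Arranged by mean mature level, the order was miR-146a-5p, miR-150-5p, miR-451a, miR-486a-5p, miR-146b-5p, miR-223-3p, miR-486a-3p, miR-155-5p, miR-144-3p, miR-142a-3p, miR-486b-5p, miR-142a-5p and miR-486b-3p. Neighbours in this order were separated in only 2 places. The lowest library of miR-146a-5p, 634 CPM, lay above the highest of miR-150-5p, 602 CPM, and the lowest of miR-451a, 317 CPM, lay above the highest of miR-486a-5p, 70.0 CPM. All other neighbours overlapped between libraries. The finished miRNAs with a sequence here are 20 to 23 bases long. Levels are read counts and were not converted to molecules, so the order is one of reads under mature entries. With mature and hairpin counts summed, miR-451a had a mean of 1003 CPM, miR-146a-5p 786 and miR-150-5p 352. In replicate 3 miR-146a-5p was still above miR-451a, at 1093 against 1010 CPM.

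A common check of haemolysis in plasma and serum sets miR-451a against miR-23a-3p, a miRNA little affected by lysis of red cells. miR-23a-3p had 1640, 2204 and 2226 mature counts, a mean of 2126 ± 218 CPM, and exceeded miR-451a by 1.86, 2.79 and 2.53 on the log2 scale. The mean was 2.39 ± 0.48, with miR-23a-3p higher in 3 of 3 libraries (exact sign-flip permutation p = 0.25, adjusted p = 0.35). With mature and hairpin counts summed the mean was 0.97. No threshold set for plasma was applied, because solid tissue makes miR-23a-3p as well.

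The contrast of the groups depended on the type of entry. In mature entries the red-cell sum was 607, 390 and 454 CPM and the leukocyte sum 1121, 1129 and 2067 CPM. The leukocyte sum was higher in every library, with a log2 ratio of red-cell to leukocyte of -0.88, -1.54 and -2.19, a mean of -1.53 ± 0.65. In hairpin entries the direction was the opposite. There the red-cell sum was 2534, 1859 and 2618 CPM of hairpin counts and the leukocyte sum 912, 1031 and 1091, a log2 ratio of 1.47, 0.85 and 1.26 with a mean of 1.20 ± 0.32. With both types summed, the log2 ratio was 0.32, -0.21 and -0.43, a mean of -0.11 ± 0.38, and the libraries did not share a direction. The mature contrast also rested on miR-146: without miR-146a and miR-146b the leukocyte sum was 480 CPM and the log2 ratio 0.028. No test was made of these sums, since the miRNAs were chosen as groups.

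**Figure D4:**
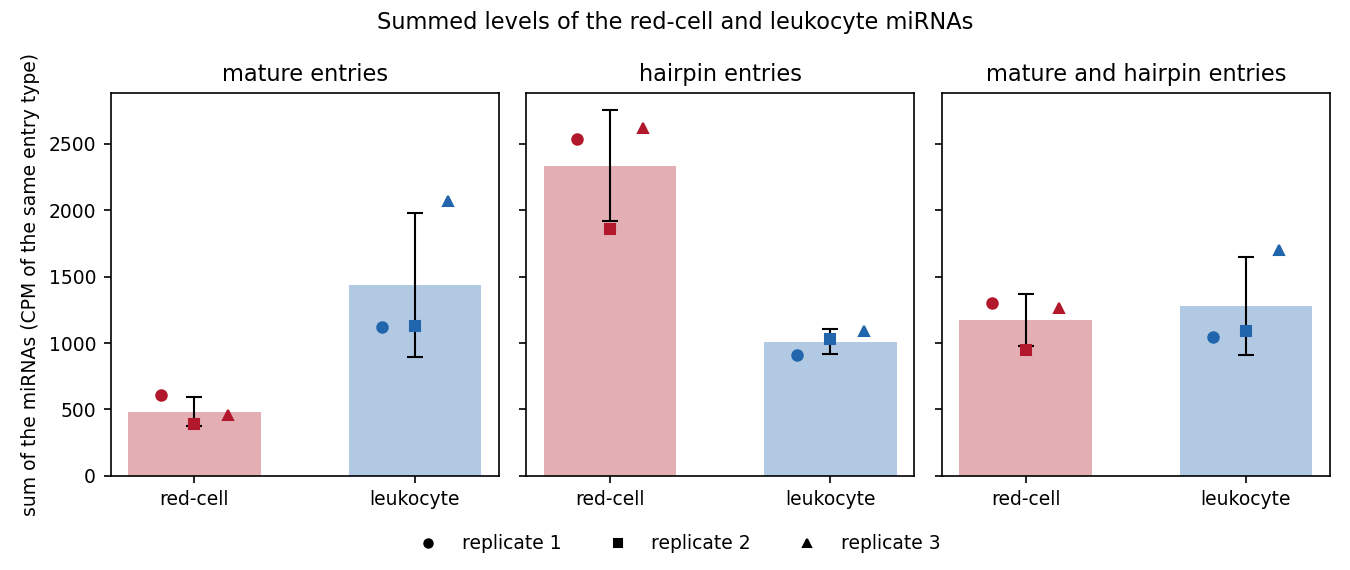
Summed level of the red-cell and leukocyte miRNAs in mature entries, hairpin entries and both together, as CPM of the same entry type. Bars are means, error bars 1 SD and symbols the 3 libraries. Leukocyte miRNAs are higher in every library in mature entries, red-cell miRNAs are higher in every library in hairpin entries, and the libraries are mixed when both are summed.

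The hairpin entry of miR-451a carried this reversal. It had 2376, 1616 and 2033 CPM of hairpin counts, a mean of 2008 ± 381, against 556 ± 32.9 for that of miR-146a-5p and 200 ± 54.6 for that of miR-150-5p. As a share of mature plus hairpin counts, the hairpin entry of miR-451a made up 72.2%, 75.6% and 75.3%, with exact binomial 95% intervals that together ran from 69.9% to 77.9%. This was the steadiest share among the 7 miRNAs with at least 10 such counts in every library, with an SD of 1.91 percentage points. The shares of miR-150-5p, at 23.9%, 20.3% and 19.5%, and of miR-146a-5p, at 32.4%, 30.6% and 20.3%, were lower in every library.

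For miR-223-3p the hairpin entry held most of the counts, 73, 82 and 58, or 68.9%, 98.8% and 73.4% of its total. Its combined counts of 106, 83 and 79 varied far less than its mature counts, and the replicate 2 gap was not seen there. With mature and hairpin counts summed, the log2 ratio of miR-451a to miR-223-3p was 4.07 ± 0.20. miR-155-5p showed the opposite order of libraries in its entries, with 0, 21 and 55 hairpin counts against 16, 14 and 2 mature counts, so its hairpin share ran from 0% to 96.5%. miR-146b-5p had 3, 81 and 27 hairpin counts. The hairpin entry of miR-142a-3p had 3, 17 and 6, and that of miR-142a-5p had counts in replicate 2 alone, 15. The arms miR-486a-3p and miR-486b-3p had at most 4 hairpin counts in any library.

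The hairpin entry exceeded the mature entry in every library for 2 of these 7 miRNAs, miR-451a and miR-223-3p, against 36.7% of the 395 miRNA identifiers measured to the same depth. The median of the mean hairpin shares was 46.3% for the 7 and 52.9% over the 395. A high hairpin share was therefore common in these libraries.

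**Figure D5:**
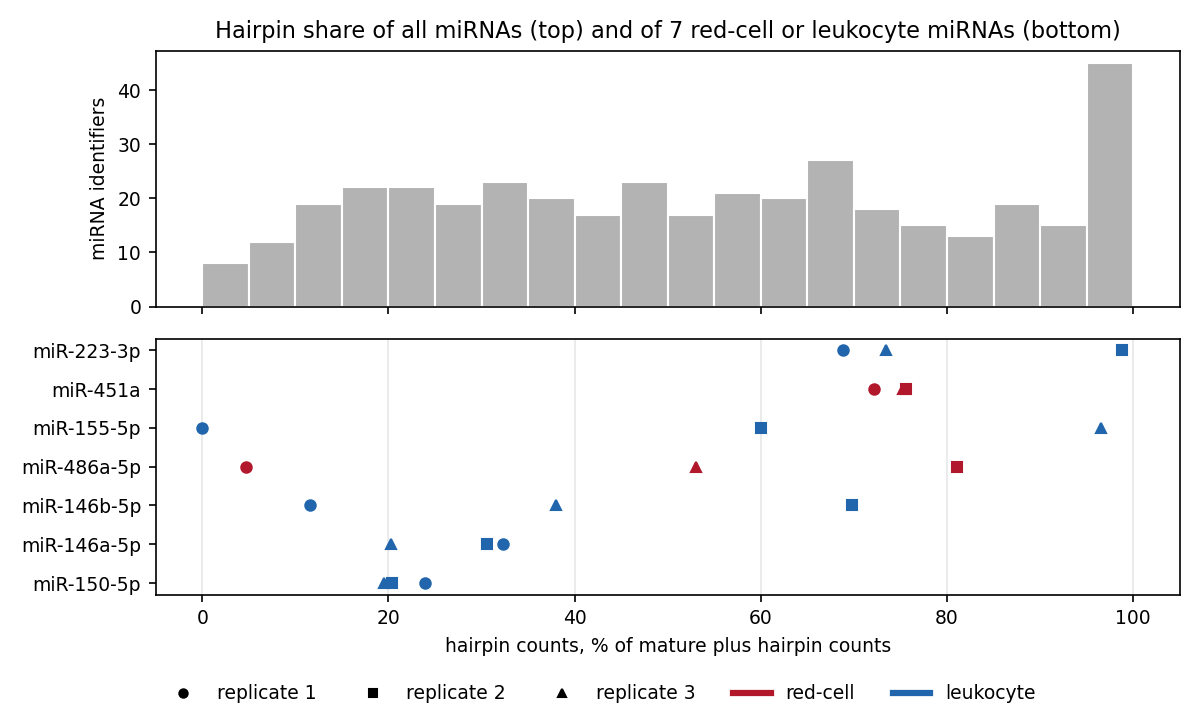
Hairpin counts as a percentage of mature plus hairpin counts. The upper histogram shows the mean over 3 libraries of 395 miRNA identifiers with at least 10 such counts in every library, and the lower panel shows the 7 red-cell (red) or leukocyte (blue) miRNAs among them with 1 symbol per library. miR-451a and miR-150-5p keep nearly the same share in every library, whereas miR-155-5p runs from 0% to 96.5%.

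Between libraries, the highest mature level was at least 2-fold above the lowest for miR-146a-5p and miR-486a-5p, which are 2 of the 5 that reached 10 counts everywhere, against 40.4% of all 272 such mature miRNAs. The median fold was 1.82 for the 5 and 1.72 over the 272. The spread of these 5 was thus near that of the 272. The scarcer members were not part of this comparison. The red-cell and leukocyte groups also ranked the libraries differently, with the red-cell sum highest in replicate 1 and the leukocyte sum highest in replicate 3. As a description over only 3 libraries, the miRNAs whose profile lay closest to that of miR-451a, among 147 with at least 100 counts in every library, were miR-15b-5p (1023, 656 and 744 CPM), miR-34a-5p (16300, 9278 and 13072 CPM) and miR-669l-5p (458, 249 and 333 CPM).

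Other miRNAs found in blood cells, many of them made widely in other tissues, covered a wide range of levels. Those abundant in red cells ranged from miR-16-5p at 8244 ± 1114 CPM and miR-25-3p at 2813 ± 543 CPM down to miR-185-5p at 105 ± 74.4 CPM. Between these lay miR-93-5p at 609 ± 223 CPM and miR-92a-3p at 489 ± 91.9 CPM, and miR-363-3p had 1 mature count in replicate 1 alone. Of the further leukocyte miRNAs, miR-342-3p was at 612 ± 199 CPM and miR-342-5p at 183 ± 59.1 CPM. The macrophage miRNA miR-511 was not listed in either arm, and miR-147-3p had 25 hairpin counts in replicate 3 alone.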

How the data were processed

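Small RNA was sequenced by the authors on BGISEQ-500, with 1 library for each EV preparation per the labels, which number 3 biological replicates and were followed here. A general statement in the methods speaks of 2 independent sets for small RNA sequencing, and how it relates to these 3 libraries is not given. Per the labels and the methods, low-quality reads were removed, clean reads were mapped with Bowtie2 and cmsearch to mm10 and to small RNA databases, and each read was given to 1 class by a priority order with miRBase first. Versions, mismatch settings, the rule that separates mature from hairpin reads and the handling of reads that fit several entries are not given in the sources used here. The deposited read counts per entry were used as they stand. The deposited percent column, the share of clean reads in each class, gave no value reported here. Another deposited column, headed as molecular identifiers, held the count per 1000000 clean reads and was not used, so PCR copies could not be told apart. The catalogues list entries with counts, and unlisted entries were taken as 0.

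CPM was computed per entry type within each library. Intervals are exact (Garwood) Poisson for CPM and exact binomial (Clopper-Pearson) for shares and ratios of counts, at 95%, and cover counting error only. The 7 ratios were tested, each by an exact two-sided sign-flip permutation test on log2 ratios with a pseudocount of 0.5 and Benjamini-Hochberg adjustment over the 7, and p below 0.25 cannot be reached with 3 libraries. When all 3 libraries share a sign the test gives its smallest p whatever their spread, so the spread is given by the SD. Scripts (SciPy 1.17.1, numpy 2.4.6, pandas 2.3.3 and matplotlib 3.10.9 under Python 3.11.15) were tested on simulated data. Alternatives covered entry type, scaling, count minimum, pooling, pseudocount, membership and leaving out each library.

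Named were all members of the group, those with at least 10 counts in every library by library and others by counts, the listed cell type markers, the most abundant miRNA and the 3 closest profiles to miR-451a. Members and lists were chosen with earlier results of these data known. Sequences came from RefSeq and gene overlaps from GENCODE vM21, both GRCm38.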

Additional observations from a re-analysis of the deposited data

Results flagged for a closer look

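Another kind of entry, outside the comparisons above, also held some of these families. None was found for mir-144 or mir-142, so the group sums below leave them out. The Rfam precursor entries, which count reads given to a family's precursor and not to a named arm, had more counts in every library than the 3 that a count of 0 allows. There was no control library to set beside them. The mir-451 family had 591, 254 and 388 counts, lowest in replicate 2 at 254. The mir-146 family had 182, 159 and 137, with a lowest value of 137, and the mir-223 family had 36, 103 and 48, with a lowest value of 36. The mir-155 family had 16, 46 and 58 counts (lowest 16), the mir-486 family 23, 12 and 26 (lowest 12) and the mir-150 family 36, 6 and 35 (lowest 6). Summed by group, the red-cell precursors had 614, 266 and 414 counts and the leukocyte precursors 270, 314 and 278, a log2 ratio of 1.19, -0.24 and 0.57. With 3 libraries no library could be tested as standing apart.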

How the results depend on the processing

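With hairpin entries the red-cell sum was 2337 CPM and the log2 ratio of the groups 1.20, and with both entry types summed these were 1171 CPM and -0.11. Without miR-146a and miR-146b the leukocyte sum was 480 CPM and the log2 ratio 0.028. Per 1000000 clean reads the sums were 17.1 and 51.1, and without miR-127-3p in the denominator the red-cell sum was 662 CPM. The log2 ratio of miR-451a to miR-150-5p became 1.54 with both entry types summed, and those of miR-451a to miR-144-3p (7.88), miR-23a-3p to miR-451a (0.97) and miR-146a-5p to miR-146b-5p (4.24) kept their direction but moved by more than 1 SD between libraries. No ratio could pass its test under any setting, so the tests say nothing of stability. Leaving out 1 library gave -0.33 to 0.17 for miR-451a over miR-150-5p and -0.61 to 1.40 for miR-142a-3p over miR-142a-5p. The group ratio ran from -1.86 to -1.21 when 1 library was left out. Requiring at least 10 mature counts in every library left 5 of 13 members. No pairing of samples between groups was possible because the series holds a single group. The ratio tests paired miRNAs within each library. Low mature counts limit the ratios to miR-223-3p, with 1 count in replicate 2 (5.22, and 3.96 without that library). They also limit those to miR-142a-3p, with 2 counts in replicate 2 and 1 in replicate 3. Replicate 2 had the most mature counts of the libraries, 1005836. Its hairpin entries held 82 counts of miR-223-3p and 17 of miR-142a-3p. The cause of the difference between mature and hairpin entries was not tested.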
